A study of Mus musculus with 10 samples.

Results

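H3K4me2 peaks of mouse T helper 2 (Th2) cells were compared with those of cells labelled naive T cells. H3K4me2 is histone H3 dimethylated at lysine 4, a mark found at promoters and enhancers. The comparison used 4 of the 10 samples of the series, 2 of each cell type. Each type gave 1 library from airway lavage fluid (bronchoalveolar lavage) and 1 from the mediastinal lymph node, which drains the airways. Peaks of these 4 libraries that lay within 500 bp of each other were merged, which gave 23881 regions. A region was called in a library when at least 1 of its peaks fell in it. It was counted as Th2-only when both Th2 libraries and neither naive T library were called there, and as naive-only in the opposite case. Coordinates are of mm10, and where values come in pairs the lavage library stands first.

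Th2 cells are CD4+ T cells that make interleukin-4, interleukin-5 and interleukin-13, and they take part in allergic airway inflammation and in defence against worms. GATA3 is the transcription factor that directs their differentiation, and STAT6 carries the interleukin-4 signal. Naive T cells have not yet met their antigen, recirculate through lymph nodes by way of CCR7, and depend on TCF1 (Tcf7), LEF1, FOXO1 and BACH2. H3K4me2 marks regulatory elements that are in use or poised, so its peaks list candidate promoters and enhancers of a cell type without measuring transcription.

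Per the labels, the mice had airway inflammation and the genotype Gata3-YFP/YFP, and the cells were sorted by flow cytometry. Both cell types, and the libraries of group 2 innate lymphoid cells (ILC2s) and of spleen and thymus CD4+ cells used beside them, carry this allele. The gate that defined naive T cells, the age of the mice and the agent that caused the inflammation are not given in the sources used here. The descriptions carry the code gneg for the naive T libraries and gpos for the Th2 libraries, without saying what either stands for. Whether the sort used the Gata3 reporter, which bears on what each naive T value and each difference at Gata3 mean, cannot be told from these labels. Whether libraries shared animals is not given either, so each p-value measures only the spread between these samples, with the site included in it.

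Depth and enrichment were lower in Th2 cells, with 11870820 to 16041895 tags and 28.7% to 29.3% of tags in peaks, than in naive T cells, with 23926669 to 24614614 tags and 37.3% to 53.7%. The Th2 lists held 14723 and 14773 peaks against 16725 and 21985, and the peak finder required 39.9 to 40.4 tags per 10000000 sequenced. A region without a peak therefore fell short of a threshold, and signal below it is not excluded.

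The naive T library of the lavage stood apart from its label's other library. The Jaccard index of covered bases, the length shared by 2 peak lists divided by the length covered by either, was 0.782 for the Th2 pair and 0.613 for the naive T pair. With the Th2 libraries, lavage naive T cells had an index of 0.740 and 0.704, and naive T cells of the node only 0.527 and 0.522.

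Markers of naive T cells went the same way. All sums below are normalized tags over the regions assigned to a gene, and they grow with the length called. At Ccr7, the chemokine receptor for lymph node entry, they were 319.1 and 551.8 in Th2 cells, 517.5 in the lavage naive T library and 3153.0 in that of the lymph node, over 8.1, 14.7, 11.2 and 30.1 kb. Only the lymph node naive T library was high there. At Ctla4, an inhibitory receptor of activated and regulatory T cells, the sums were 3519.6 and 3964.3 in the Th2 libraries, and naive T cells had 4534.8 (lavage) and 659.7 (lymph node). Foxp3, which directs regulatory T cells, was called in naive T cells of both sites (203.5 and 144.6) and in no Th2 library. The 3 genes of this check were picked from the lists after their values were seen. The lavage naive T library thus held less of the naive marks and more of the activation marks than the other library of its label, and the counts below are also given without it.

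All 26 T cell receptor and identity genes had a region, and Cd3e, a chain of the receptor complex, had Th2 sums of 562.3 and 541.7 and naive T sums of 660.8 and 884.9. Markers of other cells were summed over whole lists. Of 11 B cell genes 5 had a region, none of them Ms4a1 or Pax5, and the list summed to 675 and 733 tags in Th2 cells against 1192 and 2884. Of 14 macrophage and neutrophil genes 5 had a region (762 and 859 against 1065 and 1589), and Lyz2, Csf1r and Adgre1 had none. Natural killer cell genes had regions at 7 of 10 (1522 and 1620 against 2488 and 4569), airway epithelium genes at 4 of 10 (304 and 204 against 327 and 1009) and eosinophil and mast cell genes at 3 of 13 (0 and 0 against 53 and 396). The B cell sums included 513.0 and 498.7 against 764.4 and 1391.9 from a region over Cd79a that also holds the Arhgef1 promoter. The natural killer sums included 698.2 and 720.3 against 871.8 and 1252.9 from a region over Tyrobp with the Hcst and Nfkbid promoters. The list sums were highest in the lymph node naive T library, the one with most peaks. Their part in the naive-only regions was not tested.

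Few promoters lay in Th2-only regions, and those of 3 genes are shown because the peaks over them were absent from both naive T libraries. A promoter is taken here as the 250 bases before the start of transcription, from RefSeq (GRCm38.p6, the coordinates of mm10). Il5 encodes the cytokine that matures eosinophils (chr11:53720544-53720793, plus strand), Il6 encodes interleukin-6 (chr5:30012864-30013113, plus strand), and Ccr1 encodes a receptor for inflammatory chemokines (chr9:123968693-123968942, minus strand). For contrast, 2 promoters lay in naive-only regions: Il12rb2, a chain of the interleukin-12 receptor of Th1 differentiation (chr6:67376189-67376438, minus strand), and Actn1, which encodes the actin crosslinker alpha-actinin (chr12:80260364-80260613, minus strand). Each is written 5′ to 3′ on the strand of its gene, with matches to the motifs named after them in capitals.
Il5: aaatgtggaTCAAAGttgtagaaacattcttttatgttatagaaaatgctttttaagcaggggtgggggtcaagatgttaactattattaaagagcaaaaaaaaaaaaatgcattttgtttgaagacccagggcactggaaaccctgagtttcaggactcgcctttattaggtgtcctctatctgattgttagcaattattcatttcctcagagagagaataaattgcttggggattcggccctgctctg
Il6: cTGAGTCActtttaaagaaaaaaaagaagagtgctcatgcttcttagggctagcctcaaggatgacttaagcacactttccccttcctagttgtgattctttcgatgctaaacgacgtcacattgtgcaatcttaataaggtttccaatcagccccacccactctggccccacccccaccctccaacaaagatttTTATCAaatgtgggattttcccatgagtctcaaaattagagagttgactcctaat
Ccr1: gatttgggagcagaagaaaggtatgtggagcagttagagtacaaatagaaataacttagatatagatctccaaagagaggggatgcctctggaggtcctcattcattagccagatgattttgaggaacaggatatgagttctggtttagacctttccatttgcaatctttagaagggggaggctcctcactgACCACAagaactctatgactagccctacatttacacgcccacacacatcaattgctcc
Il12rb2: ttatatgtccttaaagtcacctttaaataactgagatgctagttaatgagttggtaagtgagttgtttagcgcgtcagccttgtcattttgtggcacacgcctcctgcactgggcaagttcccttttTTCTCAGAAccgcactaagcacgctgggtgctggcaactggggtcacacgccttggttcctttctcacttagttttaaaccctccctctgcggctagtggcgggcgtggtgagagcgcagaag
Actn1: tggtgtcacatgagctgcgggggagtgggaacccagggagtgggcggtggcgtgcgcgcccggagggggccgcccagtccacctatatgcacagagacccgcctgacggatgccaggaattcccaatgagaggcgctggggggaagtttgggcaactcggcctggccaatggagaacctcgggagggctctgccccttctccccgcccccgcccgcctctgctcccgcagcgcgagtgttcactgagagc

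Motifs were searched on both strands as AGATAA, for the family of Gata3, as TGATAA for the same family, and as CTTTGA (TCF1 and LEF1), TGANTCA (AP-1), TTCNNNGAA (STAT factors), the same letters 1 base farther apart (TTCNNNNGAA, STAT6) and TGTGGT (RUNX factors). The Il5 window held 1 CTTTGA match, which 13.8% of all 32851 windows of this length in the table hold. The Il6 window held 1 TGATAA (7.9% of all windows) and 1 TGANTCA (6.7%). The Ccr1 window held 1 TGTGGT (14.0%), the Il12rb2 window 1 TTCNNNGAA (7.0%), and the Actn1 window none of the 7. Of the 17 windows in Th2-only regions, TGATAA was found in 2 (11.8%) and AGATAA in 1 (5.9%). Of the 548 windows in naive-only regions TGATAA was found in 4.0% and AGATAA in 7.8%, and over all windows AGATAA was found in 3281 of 32851. CTTTGA was found in 11.8% of the Th2-only, 11.1% of the naive-only and 13.8% of all windows. With 17 windows, 1 window more or less moves such a share by several percentage points, and no difference between the sets is drawn from them.

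Over all peaks, 340 regions were Th2-only (1.42%) and 1605 were naive-only (6.72%), while 12055 (50.48%) were called in all 4 libraries. With 2 libraries against 2 there is no test of such calls, and in bulk samples fewer marked cells and less mark per cell cannot be told apart. The naive T lists were longer, so the count was repeated with the 14721 peaks of most tags from each list. It then gave 679 Th2-only regions (3.69%) and 526 naive-only regions (2.86%) of 18386. The share of Th2-only regions among the differing ones went from 17.5% to 56.3%, so which type had more regions of its own depended on how many peaks entered. Equal numbers by the findPeaks score instead gave 887 and 889. The number kept, 14721, was the whole lymph node Th2 list and nearly the whole lavage one, so Th2-only regions could hardly be lost (339 of 340 were Th2-only under both counts), and the loss fell on the naive-only regions (518 of 1605, or 32.3%, under both).

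Within a site the same contrast set 1 library against 1. Between the lavage libraries, 759 regions were called in Th2 cells alone, 2721 in naive T cells alone and 13638 in both. Between the lymph node libraries the numbers were 1482, 8563 and 12824. The largest group of differing regions belonged to 1 library: 6245 regions (26.15%) were called in lymph node naive T cells and in no other of the 4. When the lavage naive T library was left out, 1084 regions were Th2-only (4.6%) and 7878 naive-only (33.6%) with all peaks, and 2173 (12.1%) and 2472 (13.7%) with equal numbers. Dropping the node's naive T library instead gave 829 and 1051 with equal numbers. Dropping a Th2 library gave 1281 against 875 or 1103 against 786. A library left out loosens the rule most for its own type, so counts rise by construction, but the balance of the equal counts was not fixed by these data.

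**Figure D1:**
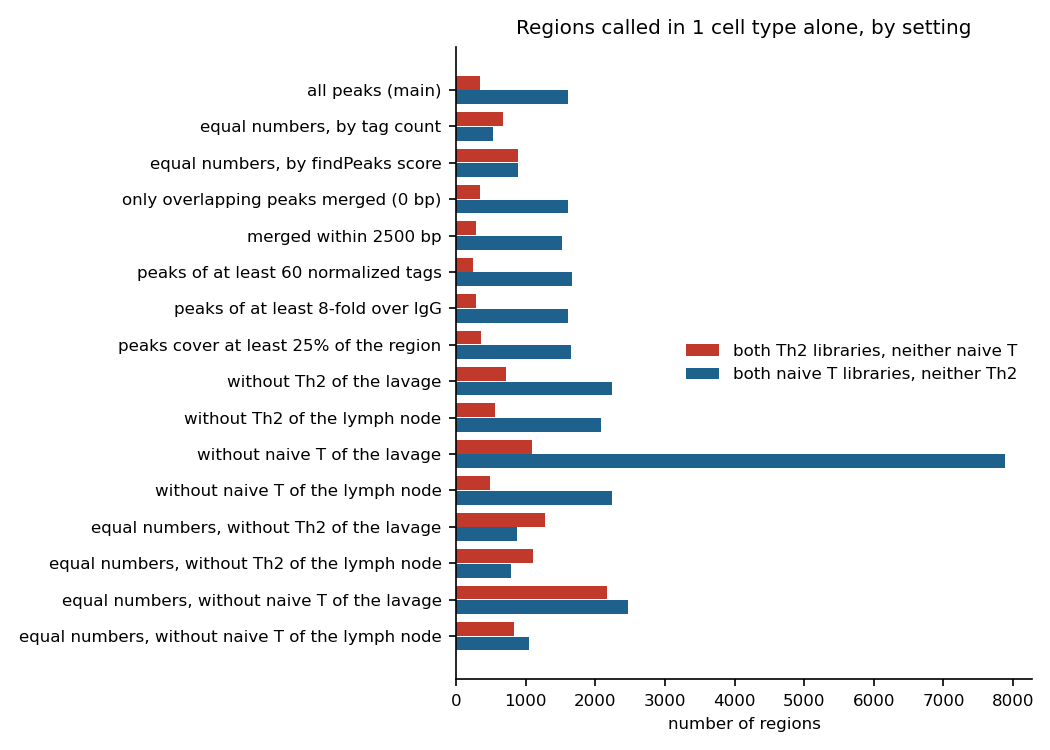
Number of regions called in both libraries of 1 cell type and in neither of the other (x axis, regions), for the main count and each alternative (rows); where a library is left out, the rule is applied to the 3 that remain. With all peaks the naive-only bar is longer in each row, and it reaches 7878 without the lavage naive T library, while with equal numbers of peaks the bars differ less (679 and 526).

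One further pattern joined the Th2 libraries and the lavage naive T library, which were called without that of the lymph node at 717 regions. Median tags there were 104.1 and 90.1 for the Th2 pair and 102.4 for the naive T library, and both Th2 values exceeded the naive one at 253 of them (35.3%). The mirror pattern, both Th2 libraries with the lymph node naive T library alone, held 143 regions.

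The Th2-only regions were distal and small. Only 16 of the 340 (4.7%) touched a promoter window, from 250 bases before to 50 after a start, against 432 of the naive-only regions (26.9%), 39.7% of all regions and 61.8% of those called in all 4 libraries. A gene was overlapped by 58.5% of the Th2-only and 69.1% of the naive-only regions, against 75.1% of all. No gene lay within 100 kb of 36 Th2-only regions (10.6%), against 3.8% of all. Median length was 1816.5 bp for Th2-only regions, 2022 bp for naive-only regions and 3595 bp for those called in all 4. Median tags in the Th2-only regions were 63.6 and 69.1, not far above the threshold, and the tallest held 620.9. In the naive-only regions the medians were 56.8 (lavage) and 123.5 (lymph node).

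The other libraries of the series, which the rule did not use, split the sets of regions. The spleen list was not independent of the rule, since its Jaccard index with the lymph node naive T list was 0.845. Its split of the sets is therefore in large part given by the rule. The lavage ILC2 library had a peak in 83.5% of the Th2-only regions and the node's in 80.6%, against 73.4% and 73.2% of all regions and 65.2% and 65.8% of the naive-only ones. The share over all regions takes in the 6245 called in lymph node naive T cells alone, where it was 30.2% and 29.5%. Regions called in all 4 libraries had 97.7% and 97.8%, so a high ILC2 share was not particular to the Th2-only set. Both ILC2 libraries were called at 266 Th2-only regions (78.2%). Spleen CD4+ cells had a peak in 1 Th2-only region (0.3%), within Gna14, in 95.3% of the naive-only regions and in 81.4% of all. Thymus CD4+ cells had one in 6.5%, 75.9% and 73.5%. The 717 regions shared by Th2 cells and lavage naive T cells lay on the side of the Th2-only set, with ILC2 peaks in 80.5% and 78.0%, spleen peaks in 10.3% and thymus peaks in 7.5%. Spleen and thymus gave 1 library each, without a replicate.

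**Figure D2:**
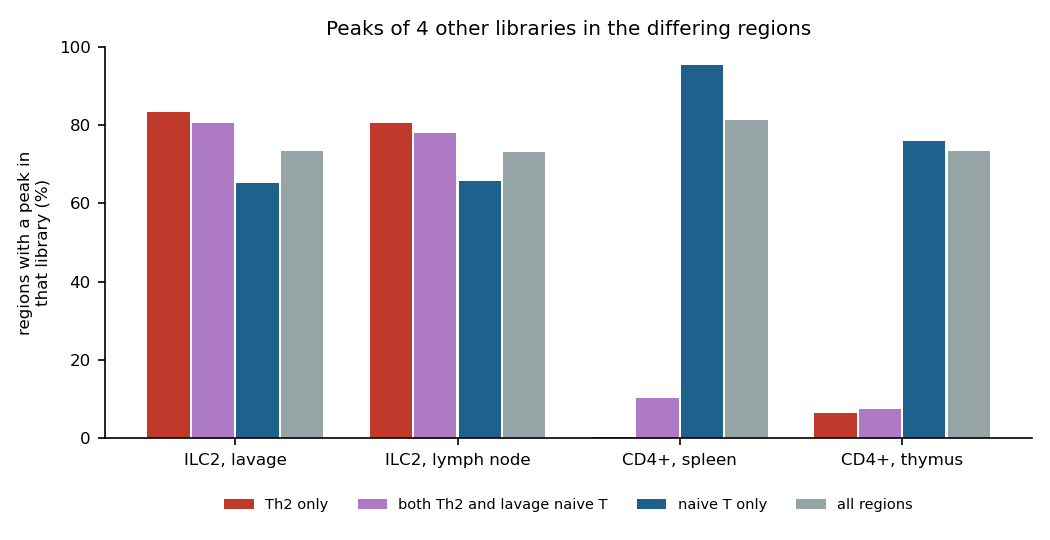
Share of regions (y axis, percent) that a peak of 4 libraries outside the comparison overlapped, for the 340 Th2-only regions, the 717 regions called in both Th2 libraries and lavage naive T cells, the 1605 naive-only regions and all 23881 regions. Of the sets drawn, the Th2-only regions have the highest ILC2 bars. Regions called in all 4 libraries of the comparison are not drawn and had 97.7% and 97.8%. The spleen bars run from 0.3% to 95.3%, and the spleen list resembled the lymph node naive T list that the rule used.

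A smaller group of 48 Th2-only regions (14.1%) had no ILC2 peak. The tallest lay within Foxp1, a forkhead factor of T cell quiescence (chr6:99201337-99207409). Th2 cells had 234.4 and 288.9 tags there, and ILC2s, spleen and thymus had no peak. The next in height lay 54262 bp from Rasgrp1, an activator of Ras behind the T cell receptor (211.9 and 317.6). Another lay within Dusp16, a MAP kinase phosphatase (138.4 and 107.0). These were picked from the 48 by their tags.

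At the type 2 cytokine and chemokine genes the Th2 libraries had more regions of their own. Of 16 genes 13 had regions, 30 in all, of which 5 were Th2-only and 1 was naive-only, shares of 16.7% and 3.3% against 1.42% and 6.72% of all regions. With equal numbers of peaks the counts were 7 and 1 of 27 (25.9% and 3.7%, against 3.69% and 2.86%), and with genes assigned within 10 kb they were 2 and 0 of 16. Without the lavage naive T library they were 12 and 4 of 30 (40.0% and 13.3%, against 4.6% and 33.6%). The Th2-only regions belonged to Il5 (1), Il6 (2) and Ccl1, a ligand of CCR8 (2), and the naive-only one to Lif.

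The Il5 region covered the gene and its promoter shown above (chr11:53716335-53723968). Th2 cells had 364.0 and 267.0 tags there, and no peak was called in naive T cells, spleen or thymus. The ILC2 peaks that overlapped it held 1978.3 and 2223.8 tags. An ILC2 value is the whole of each peak that overlaps a region, and this one reached beyond it. A second Il5 region, 6377 bp away (chr11:53731480-53737779), was called in all 4 libraries, with 283.0 and 315.9 tags in Th2 cells against 79.8 and 46.7 in naive T cells. At the Il6 promoter Th2 cells held 143.4 and 143.2 tags. Of these 3 regions only the second of Il5 was not chosen by absence from the naive T lists, and both of its Th2 values exceeded both naive ones.

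Il4 and Il13 were not Th2-only, because the lavage naive T library was called there. The region over Il4 and its promoter (chr11:53613637-53620590) reached 495.0 and 551.8 tags in the Th2 libraries against 187.7 there, and naive T cells of the node were not called. Over Il13 (chr11:53622351-53637779) the Th2 values were 961.2 and 739.6 and the single naive one 131.7, the Th2 peaks covering 15428 and 12400 bp and the naive one 3197 bp. Il10, the anti-inflammatory cytokine of several effector and regulatory T cells, had 3 regions of this kind. Its Th2 sums were 1784.0 and 2017.6, the lavage naive T sum was 1650.1 and that of lymph node naive T cells was 0. Here the lavage naive T library was thus close to both Th2 libraries. These 3 genes are named after their values were seen.

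Within the type 2 cytokine locus of chromosome 11, which also holds Rad50 and Kif3a, these neighbours of the cytokine genes had Th2-only regions. Rad50, a DNA repair gene that contains a known control region of the locus, had 2 Th2-only regions (39.9 and 102.8 tags, and 73.6 and 53.9). Kif3a, a kinesin gene next to Il4, had 1 (71.7 and 96.9), without an ILC2 peak. Farther out, the only naive-only region was near Slc22a5, a carnitine transporter gene (127.5 and 95.5 in naive T cells). P4ha2 and Pdlim4 were called in the lymph node naive T library alone, with sums of 466.0 and 1043.3. Of the 26 regions of the 7 neighbour genes, 3 were Th2-only and 1 naive-only, against 340 and 1605 of all 23881 regions (1.42% and 6.72%). Without the lavage naive T library they were 4 and 9, against 1084 and 7878 of 23425 over all regions. The naive-only side was then the larger in this list as in all regions.

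**Figure D3:**
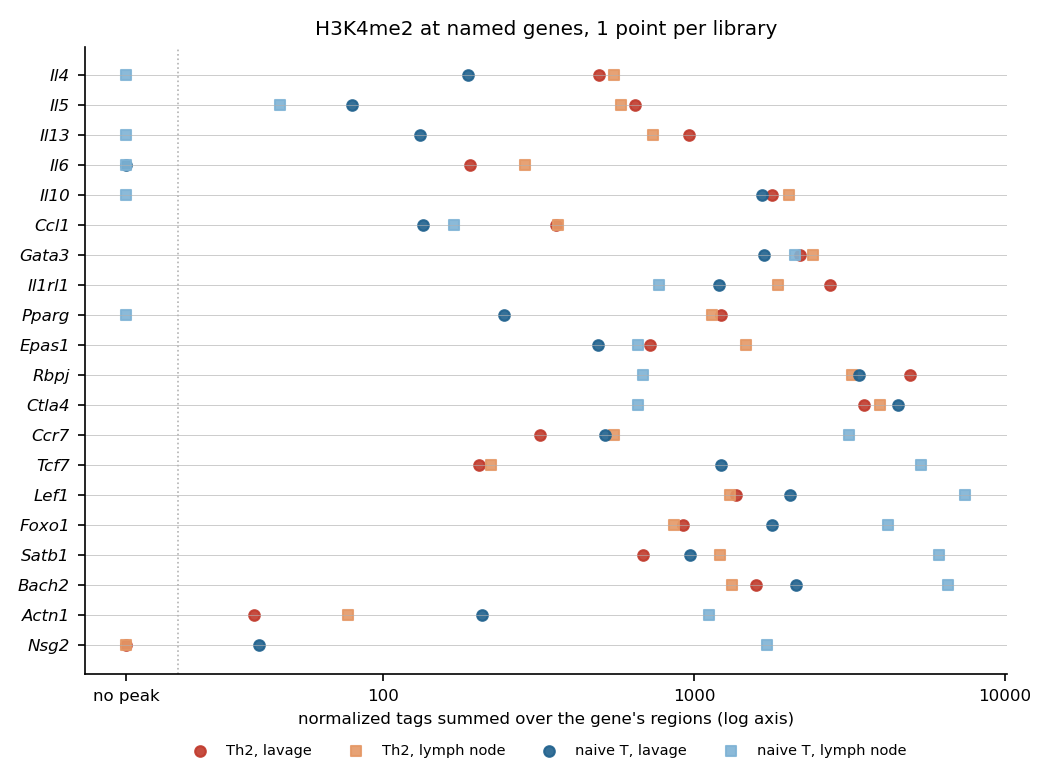
Normalized tags summed over the regions assigned to each gene (x axis, log scale, with genes without a peak at the left), 1 point per library; a point can hide another of the same value. The Th2 points lie to the right at Il4, Il5, Il13, Il6 and Pparg, and the lymph node naive T point lies far to the right from Ccr7 to Nsg2, with the lavage naive T point between it and the Th2 points at Tcf7, Lef1 and Foxo1.

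Transcription factors and receptors of Th2 cells had 13 Th2-only and 3 naive-only regions among 100 (13.0% and 3.0%, against 1.42% and 6.72% of all regions), with 28 of 31 genes measured. With equal numbers they had 15 and 0 of 87 (17.2% and 0%, against 3.69% and 2.86%). Without the lavage naive T library they had 29 and 14 of 95 (30.5% and 14.7%, against 4.6% and 33.6%). Pparg, the lipid-sensing nuclear receptor used by Th2 cells and ILC2s, had 2 Th2-only regions. The taller held 351.0 and 310.0 tags (chr6:115437066-115444692), and the other 147.7 and 230.0. Over its 4 regions Pparg summed to 1226.1 and 1144.9 in Th2 cells, against 244.9 (lavage) and 0 (lymph node). The 2 regions chosen as Th2-only are part of these sums.

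Il1rl1, the receptor for interleukin-33, had 2 Th2-only regions, with 69.2 and 44.6 tags and with 108.5 and 75.0 tags. The region over the Il1rl1 promoter (chr1:40423136-40441535) was far taller, with 1512.3 and 1089.2 tags in Th2 cells. It was not Th2-only, since the lavage naive T library held 181.4 there, while that of the node was not called. A region shared with Il18r1 went the other way, with 587.2 and 311.7 against 919.1 and 771.1. Epas1, a hypoxia-inducible factor, had 3 (38.0 and 79.2, 42.4 and 119.6, and 39.9 and 128.9), each taller in the lymph node than in the lavage. Single Th2-only regions lay near Maf (104.1 and 159.2), Batf (66.7 and 53.1), Rbpj (116.6 and 43.0) and Irf4 (61.7 and 74.1). Maf, Batf and Irf4 encode factors of effector T cells, and Rbpj the DNA-binding partner of Notch. The naive-only regions of this list lay near Dusp6, Hpgds and Irf4, and none of the 3 was naive-only with equal numbers of peaks.

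Gata3 itself was marked in all 4 libraries, in a region over the gene of 2091.4 and 2330.1 tags in Th2 libraries against 1683.1 and 2107.7 (chr2:9863897-9891541). A Th2-only region of 106.6 and 80.9 tags lay 6622 bp from its 5′ end. The gene-poor stretch beyond its 3′ end held more. Of 21 regions there that lay over 100 kb from any gene and within 1 Mb of Gata3, 7 were Th2-only, 1 was naive-only and 4 were called in all libraries. Over all 902 regions with no gene within 100 kb, these 7 and this 1 included, 36 were Th2-only and 68 naive-only. Th2 libraries were called at 15 and 17 of the 21 and naive T libraries at 7 each. The Th2-only regions lay between 293 and 986 kb from the gene.

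The tallest region of the stretch (chr2:8940867-8970641), 886 kb away, reached 2016.6 and 2767.3 tags in the Th2 libraries, 293.0 in the lavage naive T library and was not called in that of the node. ILC2 peaks there held 2361.5 and 2776.6 tags. Another region (chr2:9573936-9595960), 261 kb away, had Th2 values of 1029.8 and 1309.1 and naive T values of 134.2 and 163.3. Here ILC2s, with 134.3 and 177.4, and spleen, with 146.4, were at the level of the naive T libraries. Its Th2 peaks covered 18862 and 20849 bp and its naive T peaks 2302 and 3194 bp, at 54.6 and 62.8 tags per kb against 58.3 and 51.1, so that the length covered differed far more than the tags per kb. The single naive-only region (chr2:9518909-9521126) held 108.2 and 101.2 tags and had no ILC2 peak. The stretch was picked after its values were seen, and no assay here links these regions to Gata3.

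**Figure D4:**
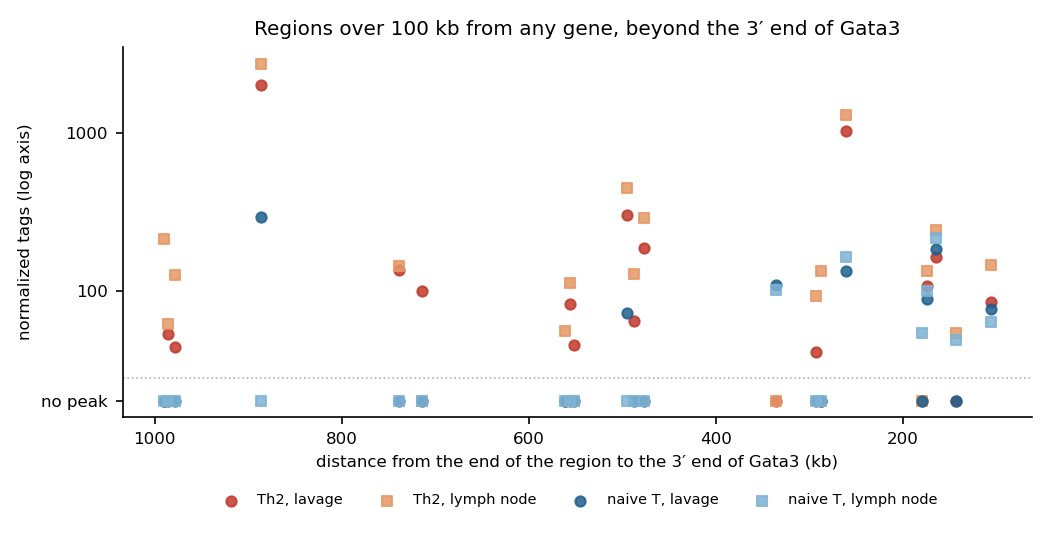
Normalized tags (y axis, log scale, regions without a peak on the bottom line) of the 21 regions over 100 kb from any gene, by their distance from the 3′ end of Gata3 (x axis, kb), 1 point per library. Th2 points rise above 1000 at 886 and 261 kb, and most naive T points lie on the bottom line beyond 400 kb.

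Genes of naive and recirculating T cells had more naive-only than Th2-only regions with all peaks, in shares not far from those of all regions. All 33 had regions, 207 together, of which 4 were Th2-only and 20 naive-only (1.9% and 9.7%, against 1.42% and 6.72% of all regions). With equal numbers of peaks the counts were 7 and 7 of 140 (5.0% each, against 3.69% and 2.86% of all regions). The 2 counts were thus the same, and each share lay somewhat above that of all regions. Without the lavage naive T library they were 5 and 110 of 206 with all peaks, against 1084 and 7878 of 23425 over all regions. With equal numbers they were then 13 and 41 of 137, against 2173 and 2472 of 17988. Without that library both naive-only shares thus lay above those of all regions. The lymph node naive T library alone was called at 89 of the 207 regions, against 6245 of 23881 over all regions.

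Tcf7, which encodes TCF1, had 3 naive-only regions that stayed so with equal numbers of peaks. The tallest (chr11:52308587-52316135) held 84.4 tags (lavage) and 639.1 (lymph node), and the others 63.1 and 454.6, and 60.6 and 206.0. Over its 5 regions Tcf7 summed to 204.4 and 223.2 tags in Th2 cells against 1225.4 and 5357.8, over 4.8, 5.4, 23.4 and 45.1 kb. The 3 regions chosen as naive-only are part of these sums.

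Foxo1, which holds T cells in quiescence, had 3 naive-only regions, of which 1 remained with equal numbers (63.5 and 403.4 tags). Bcl2, the survival factor, had 4, of which 1 remained (85.3 and 360.8), and 1 Th2-only region (59.8 and 41.3). The region over the Actn1 promoter shown above held 128.7 and 591.9 tags in naive T cells. Foxp1 had 3 Th2-only and no naive-only regions of 27, and without the lavage naive T library 3 and 10, so its direction turned. At these genes the lymph node naive T library was the higher of the 2 naive T libraries.

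Among the other lists, Th1 and cytotoxic genes had 2 Th2-only and 12 naive-only regions of 72 (2.8% and 16.7%, against 1.42% and 6.72% of all regions), and 5 and 7 of 53 with equal numbers (9.4% and 13.2%, against 3.69% and 2.86%). The naive-only ones included the Il12rb2 promoter region shown above (139.2 and 176.3 tags), a region over Eomes, a T-box factor of cytotoxic cells (79.8 and 376.6), and Cxcr3, a chemokine receptor of Th1 cells. Cxcr3 held 446.4 tags (lavage) and 54.0 (lymph node), so here the lavage naive T library was the high one. Its region was not naive-only with equal numbers of peaks. Stat4, the transducer of the interleukin-12 signal, had 2 regions of each kind, with naive-only tags of 273.3 and 297.0 at one and Th2-only tags of 96.0 and 39.6 at another.

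Activation and effector T cell genes had 7 Th2-only and 5 naive-only regions of 136 (5.1% and 3.7%), and 9 and 0 of 117 with equal numbers (7.7% and 0%). Nfkb1, a subunit of NF-kappaB, had 3 Th2-only regions (172.0 and 223.2, 62.3 and 43.0, and 152.7 and 160.1 tags). Vdr, the vitamin D receptor, had 1 (42.4 and 71.6) without an ILC2 peak. ILC2 identity genes had 6 Th2-only and no naive-only regions of 69 (8.7% and 0%), and 10 and 0 of 53 (18.9% and 0%). The shares over all regions were 1.42% and 6.72%, and 3.69% and 2.86% with equal numbers. Klrg1, a receptor of effector lymphocytes, had 2 of them (52.4 and 42.1, and 51.1 and 80.9 tags), and Nmur1, the neuromedin U receptor, had 1 at its promoter (38.6 and 76.7). The ILC2 list shares Il1rl1, Il17rb and Gfi1 with the Th2 list and Areg with the cytokine list.

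The counts of the further lists are read against the same shares. Regulatory T cell genes had 4 Th2-only and 4 naive-only of 65 regions, or 6.2% each (6 and 3 of 56 with equal numbers). With all peaks the naive-only share was near that of all regions. With equal numbers both shares lay above the 3.69% and 2.86% of all regions. With all peaks the naive-only ones lay at Foxp3, Lrrc32, Izumo1r and Nrp1. The Th2-only ones lay at Ikzf4, Nrp1 and Klrg1 (2, also counted in the ILC2 list). Nrp1 thus had a region of each kind. The Th2-only one, within the gene, held 119.1 and 135.6 tags. The naive-only one, 88604 bp away, held 67.3 and 132.8. Follicular helper genes had 1 Th2-only and 6 naive-only of 75 (7 and 2 of 57), 3 of the 6 at Il21r, the receptor for interleukin-21. With all peaks the shares were 1.3% and 8.0%, near those of all regions. With equal numbers the Th2-only share lay above the 3.69% of all regions. Th17 and ILC3 genes had 4 and 1 of 36 (5 and 0 of 27), among them Il1r1, the interleukin-1 receptor (71.1 and 173.5 tags in Th2 cells). T cell receptor and identity genes had 0 and 8 of 99, the latter 8.1% (1 and 6 of 78), with the largest at Fyn, a Src kinase (172.2 and 482.2 in naive T cells). Homing genes had 1 and 1 of 56 (2 and 0 of 46), and the Th2-only one was within Itgb1, the integrin beta-1 chain (122.8 and 165.1). Housekeeping genes had none of 16 in either count. Macrophage and neutrophil genes had 0 and 3 of 14 (2, both of the integrin gene Itgam, and 1 of 9 with equal numbers), natural killer cell genes 0 and 2 of 22, eosinophil and mast cell genes 0 and 1 of 3, and B cell and epithelial genes 0 of 9 and 0 of 11.

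The tallest Th2-only regions that held under both counts lay within or near Pold3, Zcchc10, Ccr1, Pparg, Rps6ka5, Tmem247, Il5, Sik3, Foxp1 and Taf3, ranked by the lower of the 2 Th2 values. The first, within the DNA polymerase delta subunit gene Pold3 (chr7:100099205-100108014), held 620.9 and 434.7 tags, and ILC2 peaks there 872.7 and 752.5. The region within Zcchc10, on chromosome 11 as the type 2 cytokine genes are, held 398.3 and 440.6. The Ccr1 region with the promoter shown above held 389.0 and 357.2, and ILC2s 247.7 and 300.5. Of the 10, ILC2 peaks overlapped 9, the exception being Foxp1, no spleen peak overlapped any, and a thymus peak overlapped 1, near Tmem247. The spleen list resembled that of lymph node naive T cells, so the lack of spleen peaks adds little.

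The tallest naive-only regions with a gene within 100 kb, ranked in the same way, lay within Iigp1, Tnfrsf1a, Tbc1d22a, Il21r, Stat4, Slc14a1, Thada, Slc12a7, Kcnc1 and Oas2. One region far from any gene would rank second (chr6:31183494-31193219, 348.5 and 542.8 tags). Iigp1 and Oas2 are interferon-induced genes. The Iigp1 region held 628.6 tags (lavage) and 552.1 (lymph node), and the Oas2 region 208.1 and 238.1. At Tnfrsf1a, a receptor for tumour necrosis factor, the values were 301.8 and 1050.6, and at Il21r 284.2 and 992.1. The lavage value was the lower one at 9 of the 10. A spleen peak overlapped each of the 10, which adds little for the same reason. Genes with most Th2-only regions were Itpr1 (4), the calcium channel of the endoplasmic reticulum, and Epas1, Nfkb1, Sik3, Mbnl1 and Foxp1 (3 each). Genes with most naive-only regions were Znrf2 (5) and Xylt1, Ext1, Rgs3 and Bcl2 (4 each).

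At the 12055 regions called in all 4 libraries the height of the mark could be compared as a value. Height was log2 of the normalized tags summed over the peaks of a region, less the median region of its library, and it was tested with limma. No region passed an adjusted p of 0.05, with 0 higher (0%) and 0 lower (0%) in Th2 cells. At an unadjusted p under 0.05 there were 1376, of which 687 were higher and 689 lower in Th2 cells, and the smallest adjusted p was 0.057. Without the centring, which removes a median difference of -0.61 between the types, 90 regions were higher and 1241 lower. Without the lavage naive T library 1315 were higher and 535 lower, with the lone naive T library assumed to vary like the Th2 pair, and with the lymph node one dropped instead, 5 and 0. The number of regions that passed therefore depended on which naive T libraries entered.

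The region of smallest p was the one 261 kb from Gata3 described above. Its height was 3.59 ± 0.18 (SE, n = 2 libraries a type) higher in Th2 cells on the log2 scale (limma, adjusted p = 0.057). A region within Ptpn13, a protein tyrosine phosphatase gene (chr5:103496896-103514219), reached 814.8 and 962.9 tags in the Th2 libraries against 104.9 and 117.4, a difference of 3.61 ± 0.19 (SE, limma, adjusted p = 0.057). ILC2 peaks overlapped it (1364.6 in the lavage) and no spleen peak did. The next lay at Aff4 (792.9 and 910.6 against 262.9 and 330.3), Tasp1 (883.3 and 934.2 against 272.5 and 271.8) and Runx1, a factor of T cell development (461.3 and 548.4 against 157.5 and 249.9), followed by Cnih1, Zcchc4 and Gtpbp8. At Aff4, Tasp1 and Runx1 the lower Th2 value was above the higher naive one, which the choice by smallest p nearly ensures. None of the 6 passed the test (limma, adjusted p = 0.22 to 0.3).

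Per kb of covered length the differences were far smaller, 0.60 at the first region, 0.97 at Ptpn13, 0.32 at Aff4 and -0.05 at Tasp1 on the log2 scale. Tags followed the length of a peak closely within each list, with Spearman correlations of 0.95 to 0.98 across peaks. A higher region was thus mostly a longer one, and none passed the test on the scale per kb (limma, smallest adjusted p = 0.56).

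The regions of smallest p that were lower in Th2 cells lay at Arhgef3, Fgr, Jak1, Pifo, Gramd3, Ifit2, Pip4k2a and Ankrd55. Jak1 encodes the kinase shared by many cytokine receptors. Its region had Th2 values of 63.6 and 93.5 tags and naive T values of 400.8 and 522.0. The interferon-induced gene Ifit2 held 137.8 and 136.5 at its promoter against 398.7 and 597.2. Arhgef3, a guanine nucleotide exchange factor, held 72.3 and 63.2 against 376.6 and 469.6. The groups did not overlap at these 3, which their choice by smallest p nearly ensures, and none passed (limma, adjusted p = 0.3 to 0.31). Spleen CD4+ cells, with 461.0, 488.5 and 408.4 tags, were near the naive T level at each.

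Without overlap of the centred values, Th2 cells were higher at 28.2% and lower at 24.3% of the 12055 regions. Type 2 cytokine and chemokine genes were higher without overlap at 7 of 8 regions and lower at 0, with a median difference of 0.92 on the log2 scale against 0.01 over all regions. Per kb the median was 0.44 against 0.03. The 8 were 3 at Tnfsf11, the cytokine RANKL, 2 at Lif and 1 each at Il5, Csf2 and Ccl1, the last without a clear side (-0.36). The largest was the second Il5 region, at 2.91 ± 0.44 (SE, limma, adjusted p = 0.33). Its value was 3.52 without the lavage naive T library and 2.30 with the node's dropped. Th2 regulators and receptors were higher without overlap at 20 of 35 regions and lower at 5, with a median of 0.78, which was 0.91 with the lavage naive T library dropped, 0.28 with the node's dropped and 0.28 per kb.

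Single members of these lists did not pass the test. The Gata3 region differed by 0.85 ± 0.21 (SE, limma, adjusted p = 0.39). Il1r2, the decoy receptor for interleukin-1, held 317.3 and 369.0 tags against 256.6 and 164.5, a difference of 1.35. Batf held 1559.0 and 1625.8 against 1505.4 and 845.4, a difference of 1.11 that was 1.76 with the lavage naive T library dropped and 0.47 with the node's. Il4ra, the interleukin-4 receptor chain, was lower in Th2 cells in a region 8417 bp from the gene. It held 36.8 and 64.0 against 119.1 and 251.9 tags, a difference of -1.22. Without the centring these differences were 0.23 at Gata3, 0.74 at Il1r2, 0.50 at Batf and -1.84 at Il4ra. Per kb they were 0.38, 0.62, 0.30 and -0.33. Of the cytokine locus, Rad50 held 433.9 and 550.9 against 229.5 and 251.5 (1.64), and Kif3a 197.6 and 264.5 against 105.3 and 81.7 (1.92).

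Naive and recirculating T cell genes were higher without overlap at 9 and lower at 25 of 72 regions. These were 12.5% and 34.7%, against 28.2% and 24.3% of all regions. The median was -0.30, or -0.41 with the lavage naive T library dropped and -0.12 with the node's. The lowest was the region over Tcf7 (chr11:52261788-52286064), with 134.0 and 182.8 tags in Th2 cells against 945.0 and 3964.3, a difference of -3.01 ± 0.56 (SE, limma, adjusted p = 0.36). St8sia1, a sialyltransferase gene, followed at -2.58, Itga6, the integrin alpha-6 chain, at -2.33 and Foxo1 at -2.14 (93.5 and 70.8 against 349.0 and 867.8 tags). At these 4 both naive T libraries exceeded both Th2 libraries. Ccr7 (-0.87) was less clear, since the lavage naive T library lay at the Th2 level, and it turned to 0.16 with the node's naive T library dropped. Lef1 held 86.0 and 85.9 against 157.1 and 747.1, a difference of -1.38. Per kb the median of the list was 0.05.

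Of the remaining lists, activation and effector genes had 40 of 71 regions higher and 3 lower without overlap. These were 56.3% and 4.2%, against 28.2% and 24.3% of all regions. Their median was 0.63, or 1.04 with the lavage naive T library dropped and 0.17 with the node's. The other medians also moved with the library dropped, the lavage naive T library given first. Th17 and ILC3 genes had 0.92 over 9 regions (1.76 and 0.21), homing genes 0.41 over 32 (0.74 and 0.01) and regulatory T cell genes 0.36 over 26 (0.79 and 0.08). Follicular helper genes had 0.25 over 29 (0.20 and 0.08), ILC2 identity genes 0.25 over 18 (0.24 and 0.04) and T cell receptor genes 0.10 over 50 (0.23 and 0.05). The T cell receptor genes were higher without overlap at 25 regions (50%) and lower at 11 (22%). Th1 and cytotoxic genes had 0.08 over 17 and changed sign (0.26 and -0.19). Housekeeping genes had 0.13 over 15 (0.15 and 0.08) with 8 higher and 1 lower (53.3% and 6.7%). A list of genes in use in every cell thus also leaned this way. Natural killer cell genes had -0.22 over 8 (-0.11 and -0.23) and B cell genes -0.41 over 3 (-0.63 and -0.20). No region of any list passed the test.

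**Figure D5:**
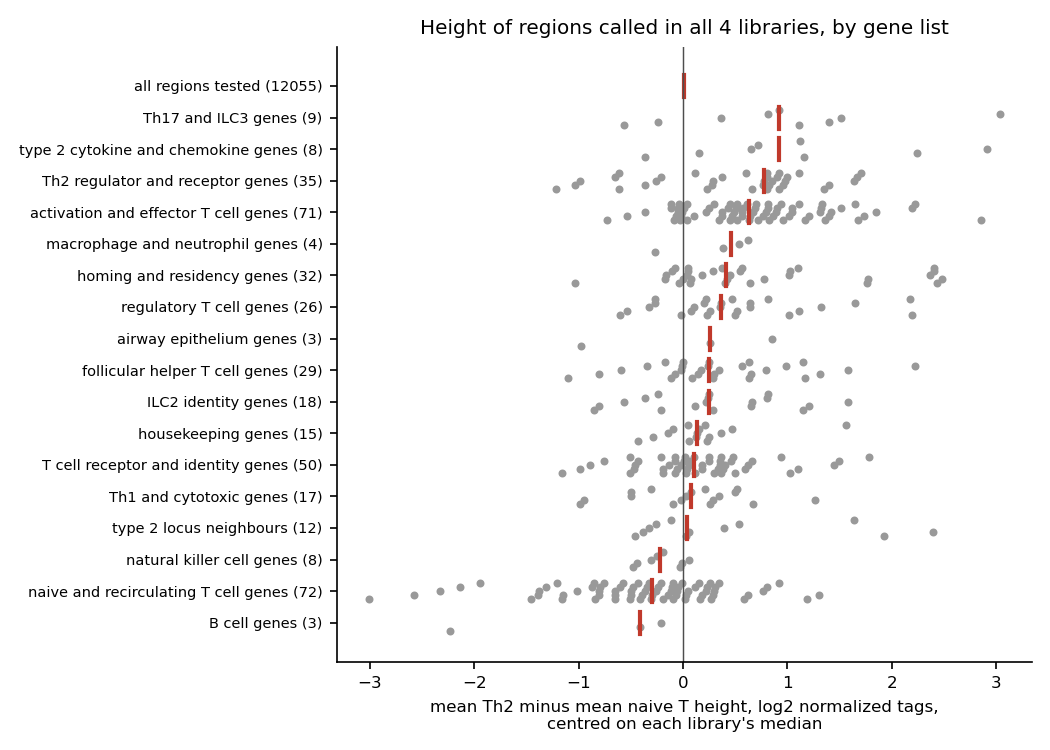
Difference in height between Th2 and naive T cells (x axis, log2 normalized tags centred on each library's median) at the regions of each gene list that were called in all 4 libraries (grey points, number in brackets), with the median of the list in red. The medians run from -0.41 for B cell genes to 0.92 for the type 2 cytokine and the Th17 and ILC3 lists, against 0.01 for all 12055 regions, whose points are not drawn.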

How the data were processed

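H3K4me2 ChIP-seq was made with a Nextera library protocol, per the labels. The authors used Bowtie, HOMER and mm10, per the submitters' processing notes, with versions not given in the sources used here. Per the file headers, peaks were called in each library separately with HOMER findPeaks (peak size 1000 bp, minimum distance 2500 bp, false discovery rate 0.001, 4-fold over IgG), and neighbouring peaks were stitched, so lengths vary. The IgG background of the 4 lists is the thymus sample, whose label names the H3K4me2 antibody, so the excess over it has an uncertain meaning. The deposited signal is a normalized tag count, scaled by the authors to 10000000 tags. The deposited lists also hold a findPeaks score and a fold change (ratio) over IgG, each used here only to rank or filter peaks. Precision rests on the 2 libraries a type, and counts of regions carry no interval.

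Peaks outside chromosomes 1 to 19, X and Y (0 to 2 a list) were left out, and the others were merged within 500 bp. Each region was assigned to the protein-coding or receptor constant genes it overlapped, or else to the nearest within 100 kb, from RefSeq (GRCm38.p6). That table gives no exons, so exons, introns and untranslated regions were not told apart. ILC2, spleen and thymus values are whole peaks that overlap a region. Heights were tested with limma 3.58.1 in R 4.3.3 (trended prior, two-sided, Benjamini-Hochberg over 12055 regions, threshold 0.05), checked on simulated data. Named regions are the 10 tallest of each set under both counts with a gene within 100 kb, the 5 genes with most, listed members, and the 8 smallest p each way; others are marked in the text. Some list members are not reported here by name. The members and lists were chosen with earlier results of these data known. Alternatives were other rankings, merge distances, thresholds, measures of height and libraries left out.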

Additional observations from a re-analysis of the deposited data

How the results depend on the processing

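The 340 Th2-only and 1605 naive-only regions stayed within 1.5 times under 5 alternatives (no merging gap, merging within 2500 bp, at least 60 tags, at least 8-fold over IgG, peaks covering at least 25% of a region). Equal numbers of peaks gave 679 and 526 by tag count and 887 and 889 by findPeaks score. Leaving out 1 library gave 485 to 1084 Th2-only and 2077 to 7878 naive-only regions. With equal numbers, an alternative chosen after seeing the data, the pairs were 1281 and 875 (lavage Th2 out), 1103 and 786 (node Th2 out), 2173 and 2472 (lavage naive T out) and 829 and 1051 (node naive T out). List counts without 1 naive T library were also added after seeing the data.

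For height, limma called 90 regions higher and 1241 lower without centring, and 6 higher and 1 lower with the ILC2 libraries sharing the spread. Leaving out 1 library gave 0 to 1315 higher and 0 to 535 lower. The replicate block, whose number is the site, called 0 and 0 (smallest adjusted p 0.19), as did the tallest peak, tags per kb, the filter at 100 tags and log2(value + 20). Same-site libraries deviated together only weakly (Pearson 0.11 across 12055 regions), and the labels give no shared animals, so the samples were not treated as pairs. Of 324 values of 30 named regions under alternatives, 7 changed sign. Per kb these were Tasp1 (-0.05), Arhgef3 (0.09), Fgr (0.08), Pip4k2a (0.06), Foxo1 (0.13) and Lef1 (0.27), since tags follow covered length. Ccr7 became 0.16 with the node's naive T library left out and -1.89 with that of the lavage left out. Shallow Th2 libraries with fewer tags in peaks limit what can be called absent there, and the part this has in the naive-only regions was not tested.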

Other observations

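The 717 regions called in both Th2 libraries and in lavage naive T cells, but not in those of the lymph node, were spread over several gene lists. Activation and effector T cell genes had 19 of their 136 regions in this pattern, Th2 regulators and receptors 15 of 100, regulatory T cell genes 13 of 65, type 2 cytokine and chemokine genes 7 of 30 and Th1 and cytotoxic genes 7 of 72. Naive and recirculating T cell genes had 1 of 207, against 717 of 23881 (3.0%) over all regions. These counts are a description without a test.

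Single-library patterns were rarer in Th2 cells than in naive T cells. In Th2 cells 193 regions (0.81%) were called in lavage alone and 362 (1.52%) in lymph node alone. In naive T cells these were 583 (2.44%) and 6245 (26.15%). The Th2 lists were also shorter, and the part this has in these counts was not tested.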
